A study of Rattus norvegicus with 4 samples.

Results

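The genes described here encode hypoxia-inducible factors (HIFs), the prolyl hydroxylases that act on them, and genes that low oxygen is known to induce. They are Hif1a, Epas1, Egln1, Egln3, Vegfa, Ndrg1, Ankrd37, Bnip3, Adm and Car9, chosen by symbol from the deposited gene table. Of these 10 genes 9 have a row among the 17778 rows of the table, and Egln1 is not analysed here. Of the 9, 8 reached the mean of 1 FPKM needed for a test, as did 9485 rows in all, and Epas1 did not. FPKM are fragment counts scaled by transcript length and by the number of mapped fragments.

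The cells were RSC96, a continuous rat line labelled as Schwann cells, which are the glia of peripheral nerve. The treated group received 100 ng/ml recombinant rat IL-22 for 48 h after a night in serum-free medium. The control group received the solvent of the cytokine, 0.1% bovine serum albumin, after the same starvation, and the labels give no time for it. Each group had 2 libraries of poly(A) RNA, all 4 came from 1 cell line at the same generation, and no oxygen level is stated for either group. Nothing says that libraries of a group came from separate cultures, so every p-value below is scaled by the spread among these 4 libraries, and that spread may be technical.

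Defining markers matched the label of the line only in part. Of 13 Schwann cell markers 8 lay under the test minimum, among them Sox10, S100b and Ngfr (at most 0.119 FPKM in any library) and Mbp, Gap43 and Cdh19 (listed at 0 throughout). Of the 5 tested, 4 were higher with IL-22 (Pmp22, Ncam1, Egr2 and Erbb3) and 1, Gfap, was lower. Egr2 and Erbb3 reached the minimum only through their IL-22 level and Gfap only through its control level, and the Erbb3 call was lost with quantile normalization and on leaving out either IL-22 library (limma adjusted p 0.00256 to 0.197 over 13 settings). The summed FPKM of the list were 82.2 and 89.1 with IL-22 and 45.7 and 48.6 in controls. The part of that shift in the results below was not tested. Summed FPKM of 8 fibroblast markers were 406 and 411 in the IL-22 libraries and 409 and 400.2 in the control libraries, with Dcn and Lum listed at 0. Within that list Pdgfra, Pdgfrb and Thy1 were called higher and Col1a1 and Col1a2 lower, and each of these 5 calls was lost on leaving out at least 1 library (highest limma adjusted p 0.0539 for Col1a1 and 0.177 among the others). Sums over 8 macrophage and leukocyte markers were 6.27 and 3.80 with IL-22 and 4.47 and 4.19 in controls, with Aif1 and Emr1 at 0. Those over 4 endothelial markers were 1.05 and 1.36 with IL-22 and 1.83 and 1.63 in controls. Spacing of low values put the sequencing depth, relative to control library 1, at 1.08 for both IL-22 libraries and 1.28 for control library 2, and absolute depth is unknown.

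HIF is a pair of proteins, an oxygen-labile alpha subunit (Hif1a or Epas1) and a stable beta subunit (Arnt). In the presence of oxygen, enzymes of the Egln family hydroxylate prolines of the alpha subunit, the von Hippel-Lindau protein recognises the mark, and the subunit is degraded. When oxygen falls the alpha subunit persists and activates genes of glycolysis, vessel growth, acid handling and mitochondrial turnover. That control acts on the protein, so the mRNA levels of the alpha subunits do not measure HIF activity. HIF protein and its activity were not measured directly in these RNA libraries.

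All 9 genes with a row had both IL-22 libraries above both control libraries. Of tested rows 38.4% showed that pattern. By limma, 8 of the 8 tested genes were higher after IL-22 and 0 were lower, where 27.6% of all tested rows were called higher and 30.8% lower, or 58.4% in either direction. Egln3 and Ankrd37 averaged under 1 FPKM in controls and so passed the minimum through their IL-22 level. The median difference of the 8 was 1.78 on the log2(FPKM + 1) scale, against a median of -0.022 over all tested rows. Differences are IL-22 minus control on that scale with the standard error from limma, and folds are ratios of mean FPKM. Beside a mean FPKM, ± gives the SD of the 2 libraries of a group. In such bulk RNA a larger share of expressing cells cannot be told apart from more RNA per cell.

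**Figure D1:**
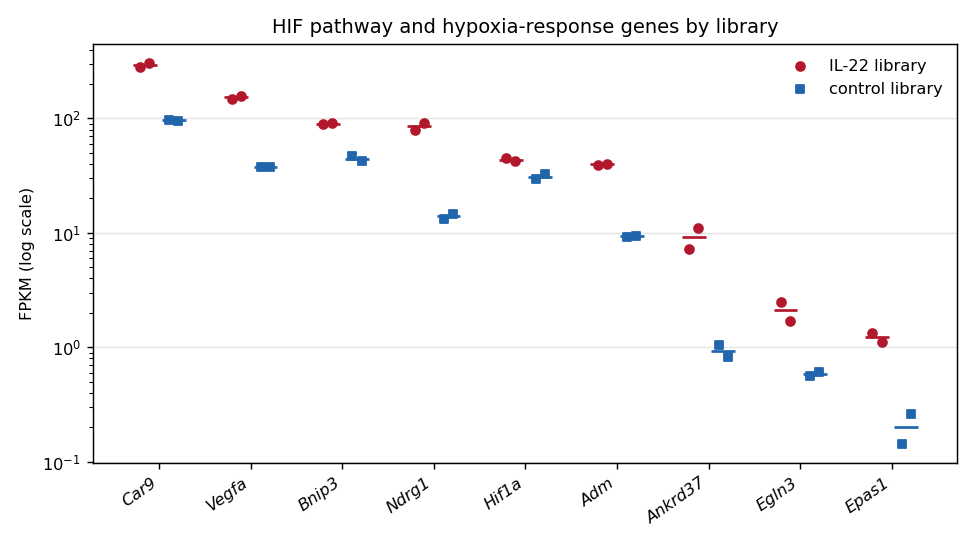
FPKM on a log axis for the 9 genes with a row, with red circles for the IL-22 libraries, blue squares for the control libraries and a bar at each mean. Groups did not overlap for any of the 9 genes, and Hif1a had the smallest ratio between group means, 43.5 against 31.0 FPKM.

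Among the alpha subunits, Hif1a measured 44.7 and 42.2 FPKM in the IL-22 libraries and 29.6 and 32.4 FPKM in the control libraries. The groups did not overlap, and the change was the smallest of the tested genes at 1.40-fold. The difference was 0.48 ± 0.08 (limma adjusted p = 0.000787), which ranked 1545 of 9485 rows from the top. Epas1, which encodes HIF-2alpha, measured 1.33 and 1.11 FPKM with IL-22 and 0.144 and 0.262 FPKM in controls, a 6.0-fold ratio between low levels. It entered no test at the stated minimum. With every row above 0 included it was higher by 0.88 ± 0.09 (limma adjusted p = 0.00469), in a fit that called 20.3% of rows higher. Hif1a remained the main alpha-subunit transcript, at 33.7 and 38.2 times the FPKM of Epas1 in the IL-22 libraries and 205 and 124 times in the control libraries. Hif3a was listed at 0 in all 4 libraries.

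Among the partners of the alpha subunits, Arnt, the beta subunit gene, measured 29.7 and 31.2 FPKM with IL-22 and 23.1 and 26.9 FPKM in controls. Its difference of 0.28 passed (limma adjusted p = 0.0243) but lost its call under 4 of 14 alternatives, among them leaving out the second IL-22 or the first control library (limma adjusted p 0.00635 to 0.122). Cited2, itself a HIF target that competes with HIF for the co-activators CBP and p300, rose to 218 and 221 FPKM, against 145 and 165 FPKM in controls (0.50 ± 0.07). Crebbp, which encodes CBP, was lower at 14.2 and 14.0 FPKM with IL-22, against 16.8 and 19.7 FPKM in controls (-0.35 ± 0.10). That call was lost with no filter and on leaving out control library 2 (limma adjusted p 0.00318 to 0.0791 over the 14). The list of subunits and co-factors, Hif1a included, had 4 tested genes, with 3 higher and 1 lower (median 0.38).

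Of the oxygen sensors, Egln3 was higher, Hif1an lower and Egln2 not called. Egln3, a prolyl hydroxylase whose own gene is a HIF target, measured 2.49 and 1.71 FPKM with IL-22 and 0.557 and 0.615 FPKM in controls. Its libraries did not overlap between groups, although the IL-22 libraries differed from each other by 1.45 times. The difference was 0.96 ± 0.18 (limma adjusted p = 0.00181), and because controls lay under 1 FPKM the gene reached the minimum only through its level with IL-22. Egln2, the other prolyl hydroxylase measured and the more abundant, was at 36.2 and 41.9 FPKM with IL-22 and 48.8 and 42.3 FPKM in controls and did not pass (limma adjusted p = 0.0806). It gave 14.6 and 24.5 times the FPKM of Egln3 in the IL-22 libraries and 87.6 and 68.8 times in the control libraries. Hif1an, the asparagine hydroxylase that blocks recruitment of co-activators by HIF, fell to 18.0 and 16.8 FPKM with IL-22, against 25.2 and 25.6 FPKM in controls (-0.52 ± 0.08, limma adjusted p = 0.000581).

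Genes for the degradation of the alpha subunit include Vhl, the recognition subunit. It measured 15.3 ± 0.356 FPKM with IL-22 and 13.7 ± 0.703 FPKM in controls and did not pass (limma adjusted p = 0.19). The elongin C gene Tceb1 was lower by 0.51 and the scaffold gene Cul2 by 0.25. Tceb1 lost its call under 4 of 14 alternatives, among them leaving out either control library or the second of IL-22 (limma adjusted p 0.00169 to 0.0919). Cul2 lost its call under 7 of 14, among them leaving out any 1 of the 4 libraries (limma adjusted p 0.0341 to 0.228). Siah2, a ubiquitin ligase that removes Egln proteins in hypoxia, rose to 17.2 and 17.0 FPKM with IL-22, against 12.1 and 11.1 FPKM in controls (0.53 ± 0.09). Os9, a lectin of the endoplasmic reticulum also reported to bind HIF-1alpha and its hydroxylases, rose by 0.50 ± 0.07. Over the 11 tested sensor and degradation genes, Egln3 included, 3 were higher, 3 lower and 5 not called, with a median of -0.10. Those counts are near the shares over all tested rows, 27.6% higher and 30.8% lower.

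**Figure D2:**
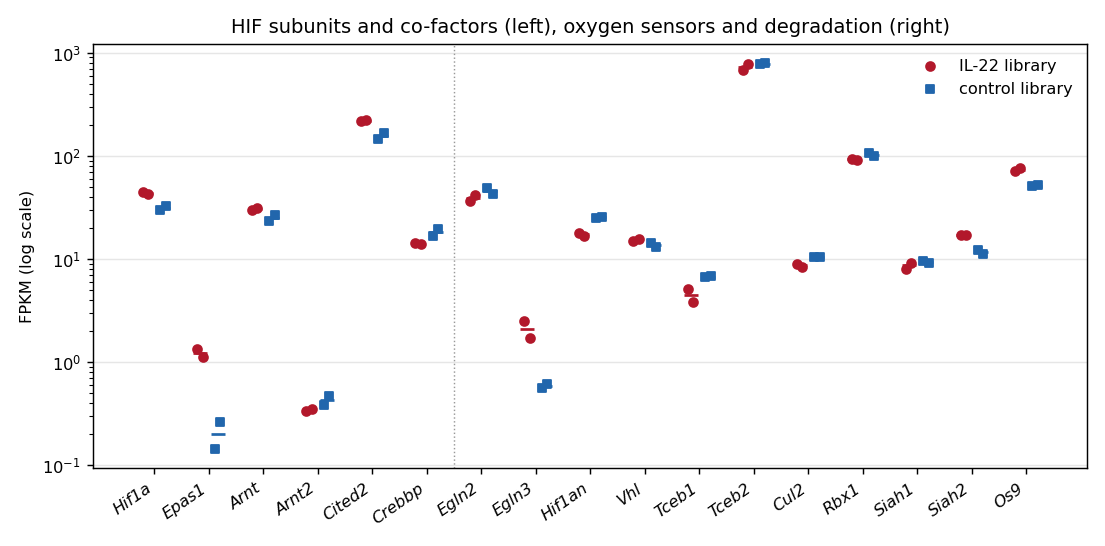
FPKM on a log axis for HIF subunits and co-factors (left of the dotted line) and for sensors and degradation genes (right), with red circles for IL-22 libraries, blue squares for control libraries and bars at the means. Egln3 and Epas1 show the widest separation, while Vhl (15.3 against 13.7 FPKM on average) and Tceb2 lie close together.

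HIF binds a short core motif in its target genes, and the promoters below show where its letters occur in those of these genes that hold any and have data. RefSeq promoter windows of the rat assembly GRCr8, from 250 bases before to 50 after an annotated start, matched 9 of the 10 symbols, all but Ndrg1. Searched on both strands for ACGTG and GCGTG, with the palindrome CACGTG counted once per strand, 5 of the 9 windows held at least 1 match (55.6%). The same was true of 41.6% of all 33469 windows and of 64.2% of the 7171 windows of tested rows. The windows of Ankrd37 (chr16:53001257-53001556, plus strand), Bnip3 (chr1:203154913-203155212, minus strand), Hif1a (chr6:98359648-98359947, plus strand) and Car9 (chr5:62558774-62559073, plus strand) are given 5′ to 3′ with each match in capitals. The sequences are RefSeq's and do not come from the RSC96 cells.
Ankrd37: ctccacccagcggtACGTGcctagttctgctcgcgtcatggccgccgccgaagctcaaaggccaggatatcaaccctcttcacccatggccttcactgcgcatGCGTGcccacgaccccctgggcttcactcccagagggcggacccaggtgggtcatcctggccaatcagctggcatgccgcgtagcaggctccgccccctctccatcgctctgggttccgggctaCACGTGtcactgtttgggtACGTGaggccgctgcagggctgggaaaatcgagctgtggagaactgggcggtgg
Bnip3: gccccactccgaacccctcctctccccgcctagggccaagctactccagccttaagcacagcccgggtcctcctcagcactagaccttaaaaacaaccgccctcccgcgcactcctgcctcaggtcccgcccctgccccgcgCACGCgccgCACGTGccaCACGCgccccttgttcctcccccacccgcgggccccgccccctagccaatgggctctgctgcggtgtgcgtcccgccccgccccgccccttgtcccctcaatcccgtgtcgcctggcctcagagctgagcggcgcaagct
Hif1a: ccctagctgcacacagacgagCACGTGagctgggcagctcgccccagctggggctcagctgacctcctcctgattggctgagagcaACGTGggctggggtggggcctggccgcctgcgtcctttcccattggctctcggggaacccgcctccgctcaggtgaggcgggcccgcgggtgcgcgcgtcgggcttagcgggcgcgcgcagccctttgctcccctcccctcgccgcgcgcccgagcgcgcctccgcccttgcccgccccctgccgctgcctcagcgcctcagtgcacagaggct
Car9: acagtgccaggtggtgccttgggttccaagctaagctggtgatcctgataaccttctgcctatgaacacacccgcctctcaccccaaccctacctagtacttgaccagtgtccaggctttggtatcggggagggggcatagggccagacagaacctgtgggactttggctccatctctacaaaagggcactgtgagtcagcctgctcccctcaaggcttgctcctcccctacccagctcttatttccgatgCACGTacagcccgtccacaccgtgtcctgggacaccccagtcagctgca
Ankrd37 held 5 matches, the nearest to the start beginning 4 bases before it. Bnip3 held 4, between 108 and 90 bases before its start, Hif1a held 3, at 229, 228 and 164 bases before, and Car9 held 1, just after the start. Egln1 held 2, and no match lay in the windows of Epas1, Egln3, Adm or either annotated start of Vegfa. A match is a description of letters, and its absence says only that they are not within these 300 bases.

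The secreted vascular factors were among the larger changes. Vegfa, which encodes vascular endothelial growth factor A, measured 149 and 156 FPKM with IL-22 and 37.5 and 37.4 FPKM in controls. The control libraries were nearly identical and the IL-22 libraries lay 4.07-fold above them. The difference of 2.00 ± 0.07 (limma adjusted p = 1.02e-07) ranked 63 from the top. Adm, the gene of the vasodilator peptide adrenomedullin, measured 39.3 and 40.4 FPKM with IL-22 and 9.22 and 9.48 FPKM in controls. Libraries of a group differed by 1.03 times while the groups differed 4.27-fold (1.98 ± 0.08, limma adjusted p = 2.66e-07, rank 65).

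The relatives of these factors did not all move with them. Vegfb was at 35.5 and 37.3 FPKM with IL-22 and 36.5 and 37.2 FPKM in controls, so that Vegfa exceeded Vegfb 4.19-fold in both IL-22 libraries but stood at 1.03 and 1.0 times Vegfb in controls. Pgf, placental growth factor, was higher (0.95 ± 0.18), as was the receptor gene Flt1, at 3.55 and 3.40 FPKM with IL-22 and 1.13 FPKM in both controls (1.07 ± 0.14, limma adjusted p = 0.000232). Pgf reached the test minimum only through its IL-22 level. Nrp2, a co-receptor, fell to 219 and 216 FPKM, against 259 and 271 FPKM in controls (-0.28 ± 0.06). Vegfc was called higher (0.56 ± 0.19), but control library 1 at 1.67 FPKM stood apart from control library 2 at 3.09 FPKM, and without control library 1 the difference was 0.25 and not called. Its call also depended on the first IL-22 library, the filter and the normalization, being lost with quantile normalization (limma adjusted p 0.00442 to 0.165 over 13 settings). The adrenomedullin receptor Calcrl reached at most 0.354 FPKM in any library and the VEGF receptor Kdr at most 0.139 FPKM, so neither was tested. The 7 tested relatives and receptors, among 14 listed, comprised 3 higher, 1 lower and 3 uncalled (median 0.17). Over all tested rows 27.6% were called higher and 30.8% lower.

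Other secreted or vascular genes known as HIF targets included several changes of like size. Stc1 and Stc2, the stanniocalcins, were higher by 2.09 ± 0.15 and 2.05 ± 0.10, and Angptl4, an inhibitor of lipoprotein lipase, measured 101 and 106 FPKM with IL-22 and 24.7 and 24.8 FPKM in controls (2.02 ± 0.07). Among 13 tested genes of this list, Vegfa and Adm included, 9 were higher and 3 lower (median 0.95). The lower genes, named after their values were seen, included established HIF targets. Edn1, the vasoconstrictor endothelin-1, was at 1.31 and 1.40 FPKM with IL-22 and 4.04 and 3.39 FPKM in controls (-1.0 ± 0.15, limma adjusted p = 0.000401). Tfrc, the transferrin receptor, was lower by 0.45, and Tgfb3 was lower by 0.32, a call lost under 6 of 14 alternatives, among them leaving out any 1 of the 4 libraries (limma adjusted p 0.0218 to 0.208). Epo, Cxcr4, Igfbp1 and Igfbp3 of the same list were listed at 0 throughout.

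Car9, a membrane carbonic anhydrase that acidifies the outside of hypoxic cells, was the most abundant of the genes in both groups. It measured 280.4 and 305 FPKM with IL-22 and 97.9 and 95.5 FPKM in controls, a 3.03-fold ratio and an added 196 FPKM. The difference was 1.59 ± 0.07 (limma adjusted p = 3.14e-07, rank 129). By level it stood at rank 295 of the tested rows with IL-22 and at rank 1033 in controls. The related Car12 was lower in level but had the larger fold, at 11.6 and 13.4 FPKM with IL-22 and 1.66 and 1.51 FPKM in controls (2.39 ± 0.12), so that Car9 was 24.1 and 22.7 times Car12 with IL-22 and 59.1 and 63.3 times in controls. The lactate exporter gene Slc16a3 was higher by 0.43 ± 0.07.

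Bnip3, whose product on the outer mitochondrial membrane promotes mitophagy, measured 89.4 and 90.7 FPKM with IL-22 and 47.0 and 42.3 FPKM in controls. The groups lay 2.02-fold apart, well beyond the spread of either (1.0 ± 0.07, limma adjusted p = 7.26e-06). Bnip3l, its closest relative with the same role, was higher by a smaller 0.35 ± 0.08, and the ratio of Bnip3 to Bnip3l was 2.62 and 2.50 with IL-22 and 1.65 and 1.59 in controls. In the list of mitophagy and mitochondrial targets 9 of 9 tested genes were higher (median 1.0). Besides Bnip3 they included Ddit4, an inhibitor of mTORC1 (48.2 ± 1.11 FPKM with IL-22 and 9.32 ± 1.15 FPKM in controls), Ndufa4l2 (1.52 ± 0.19), the pyruvate dehydrogenase kinase gene Pdk1 (1.08 ± 0.08), Fam162a (1.05 ± 0.07) and the MYC antagonist Mxi1 (0.95 ± 0.09). Cox4i2, an oxygen-regulated subunit of cytochrome c oxidase, was under the minimum, at 1.51 and 1.08 FPKM with IL-22 and 0.466 and 0 FPKM in controls.

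Ndrg1, a stress-induced gene known for its role in Schwann cell and myelin maintenance, had the largest difference of the tested genes. It measured 80.0 and 90.8 FPKM with IL-22 and 13.2 and 14.7 FPKM in controls, 6.13-fold apart. The difference was 2.53 ± 0.09 (limma adjusted p = 1.47e-07, rank 35). Ndrg3, the only other family member above 10 FPKM, measured 10.7 and 11.7 FPKM with IL-22 and 12.6 and 14.1 FPKM in controls and did not pass (limma adjusted p = 0.0717). Ndrg1 stood at 7.48 and 7.75 times Ndrg3 in the IL-22 libraries and at 1.05 and 1.04 times in the control libraries. Ndrg4 was higher by 1.36 ± 0.16 at low levels, and reached the minimum only through its IL-22 level.

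Ankrd37, a small ankyrin-repeat gene used as a marker of HIF activity, had the largest fold among the tested genes. Its values were 7.19 and 11.1 FPKM with IL-22 and 1.05 and 0.817 FPKM in controls, 9.79-fold apart on the means. The groups did not overlap, but the IL-22 libraries differed from each other by 1.54 times, the widest spread within the IL-22 group among the 9 genes. The difference was 2.37 ± 0.19 (limma adjusted p = 1.08e-05, rank 41), and its control mean of 0.933 FPKM lay under the minimum. Its size depended on the pseudocount, at 3.14 with 0.1 and 1.24 with 5. Egln3 moved likewise, at 1.66 with a pseudocount of 0.1 and 0.34 with 5.

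**Figure D3:**
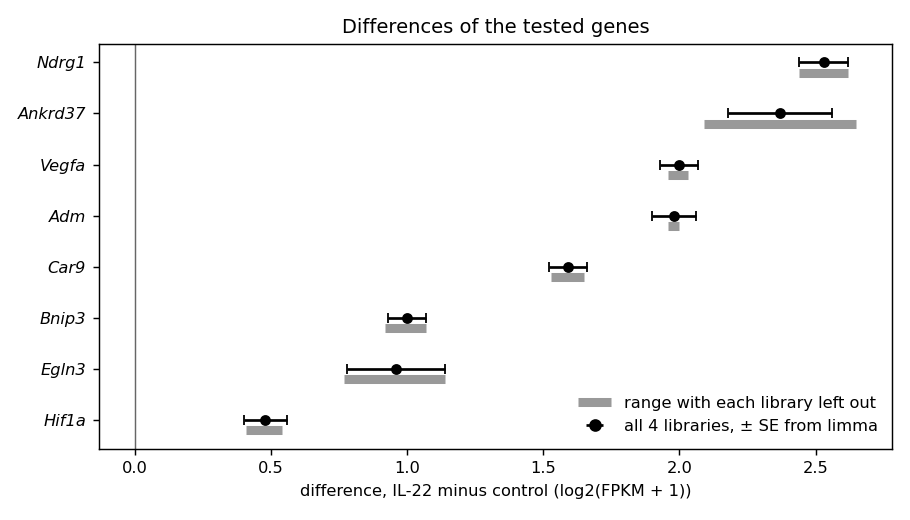
Difference between IL-22 and control on the log2(FPKM + 1) scale for the 8 tested genes, with black points and bars for the estimate ± SE from limma and grey bars for the range when each library was left out in turn. No range reaches 0, and Ankrd37 and Egln3 have the widest.

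The order of the levels differed between groups. With IL-22 it ran Car9, Vegfa, Bnip3, Ndrg1, Hif1a, Adm, Ankrd37, Egln3 and Epas1, from 293 to 1.22 FPKM on average, and among neighbours in that order only Bnip3 and Ndrg1 had overlapping libraries. In controls it ran Car9, Bnip3, Vegfa, Hif1a, Ndrg1, Adm, Ankrd37, Egln3 and Epas1, from 96.7 to 0.203 FPKM, with no overlap between neighbours. FPKM are scaled by transcript length, which makes comparisons between genes possible but approximate. The annotation is not stated and overlapping genes may share reads, so the order of close neighbours is uncertain. Of the 8 tested genes 5 were called higher by at least 1 on the log2 scale (Ndrg1, Ankrd37, Vegfa, Adm and Car9), as were 4.68% of all tested rows, and Bnip3 lay just under that limit.

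**Figure D4:**
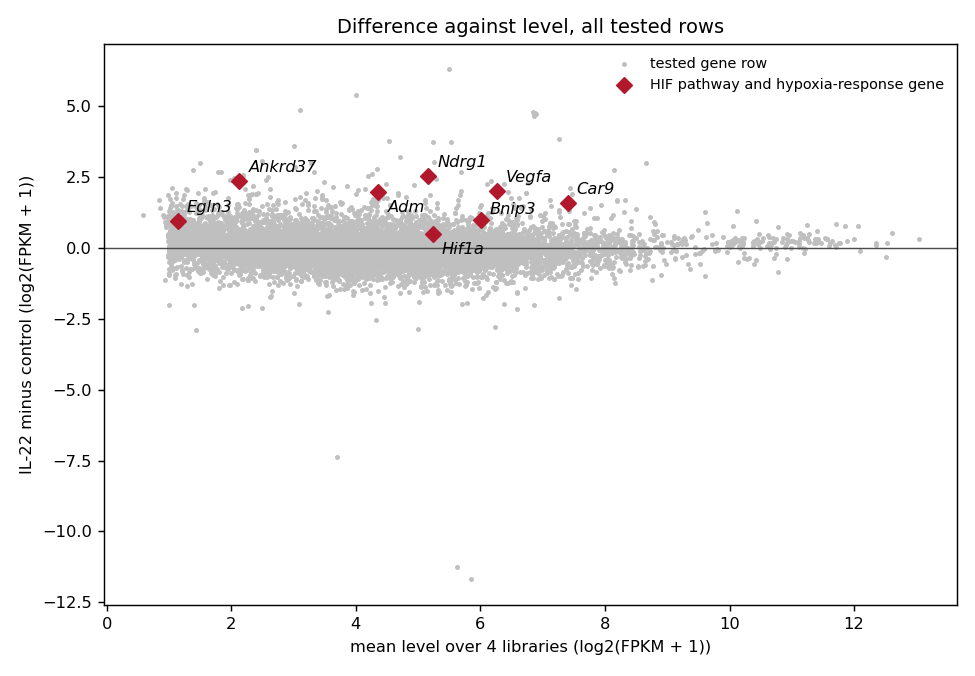
Difference between IL-22 and control (vertical axis) against the mean level over the 4 libraries (horizontal axis), both on the log2(FPKM + 1) scale, for all 9485 tested rows in grey and the 8 tested genes as red diamonds. All 8 lie above 0, from Hif1a at 0.48 to Ndrg1 at 2.53, and they span low to high levels.

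Lists of further hypoxia-induced genes were described by their counts, beside the 27.6% of rows called higher and 30.8% called lower. Outside the 10 genes, 66 distinct target genes entered the test, with 52 higher, 3 lower and a median of 0.71. In the list that holds Ndrg1 and Ankrd37, 8 of 11 tested genes were higher and 0 lower (median 1.17). Those figures include Ndrg1 and Ankrd37 themselves, and Ankrd37 reached the minimum only through its IL-22 level. Bhlhe40, a circadian and hypoxic repressor, had the largest difference of any gene in these lists, at 73.0 and 85.0 FPKM with IL-22 and 8.14 and 7.13 FPKM in controls (3.21 ± 0.10, limma adjusted p = 7.5e-08). Ero1l, an oxidase of protein folding, rose to 145 and 156 FPKM with IL-22, against 31.5 and 29.6 FPKM in controls, and the lipoprotein receptor Vldlr (1.41 ± 0.17) and the sterol regulator Insig2 (1.17 ± 0.09) were higher too. Vldlr reached the minimum only through its IL-22 level. The 3 that did not pass, named after their values were seen, were Wsb1, Zfp395 and Narf, with differences of 0.16, 0.14 and -0.01.

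The enzymes of collagen and chromatin that use oxygen as a substrate, many of them HIF targets, gave 7 higher and 0 lower of 11 tested (median 0.49). The lysyl oxidase gene Lox measured 47.0 and 51.2 FPKM with IL-22 and 20.8 and 22.2 FPKM in controls (1.15 ± 0.08). Collagen prolyl hydroxylase genes P4ha2 and P4ha1 were higher by 1.02 ± 0.07 and 0.73 ± 0.06, and the lysyl hydroxylase gene Plod2 by 0.96 ± 0.07. Kdm4b, a histone demethylase gene, was higher by 0.56 ± 0.09 and the lysyl oxidase relative Loxl4 by 0.49 ± 0.09. The uncalled genes, named after their values were seen, were Loxl2 (0.06), Jmjd6 (-0.20) and the histone demethylases Kdm3a (0.17) and Kdm4c (0.29).

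For glucose uptake and glycolysis 20 of 21 tested genes were higher and 0 lower (median 0.70). The largest were the brain-type isozyme genes Aldoc (2.41 ± 0.08) and Eno2 (1.92 ± 0.07), followed by the glucose transporter gene Slc2a1, at 340.4 and 369 FPKM with IL-22 and 132 and 133 FPKM in controls. The glycogen branching gene Gbe1 (1.10 ± 0.11), Pfkp (1.02 ± 0.08) and Pgk1 (0.95 ± 0.07) came next. Some smaller calls, named after their values were seen, were less stable. Hk1 (0.22) and Pkm (0.24) kept theirs under 10 of 14 alternatives and Eno1 (0.33) under 12. Each of these lost its call on leaving out the second IL-22 library. Ldha, a classical HIF target and the smallest call, named after its values were seen, averaged 1958 ± 78.0 FPKM with IL-22 and 1715 ± 87.7 FPKM in controls (0.19 ± 0.07, limma adjusted p = 0.0407). It lost its call under 6 of 14 alternatives, among them quantile normalization and leaving out either IL-22 library or the second control (limma adjusted p 0.0195 to 0.301).

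Targets described as preferring HIF-2 gave 3 higher and 0 lower of 4 tested (median 0.87). Tgfa, a ligand of the EGF receptor, measured 63.0 and 62.5 FPKM with IL-22 and 23.0 and 23.5 FPKM in controls (1.39 ± 0.07), and the iron importer gene Slc11a2 was higher by 0.35 ± 0.11. That last call was lost with no filter and on leaving out the first library of either group (limma adjusted p 0.00934 to 0.0971 over the 14). Cybrd1, an iron reductase gene named after its values were seen, did not pass at 2.45 FPKM with IL-22 and 2.66 FPKM in controls.

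**Figure D5:**
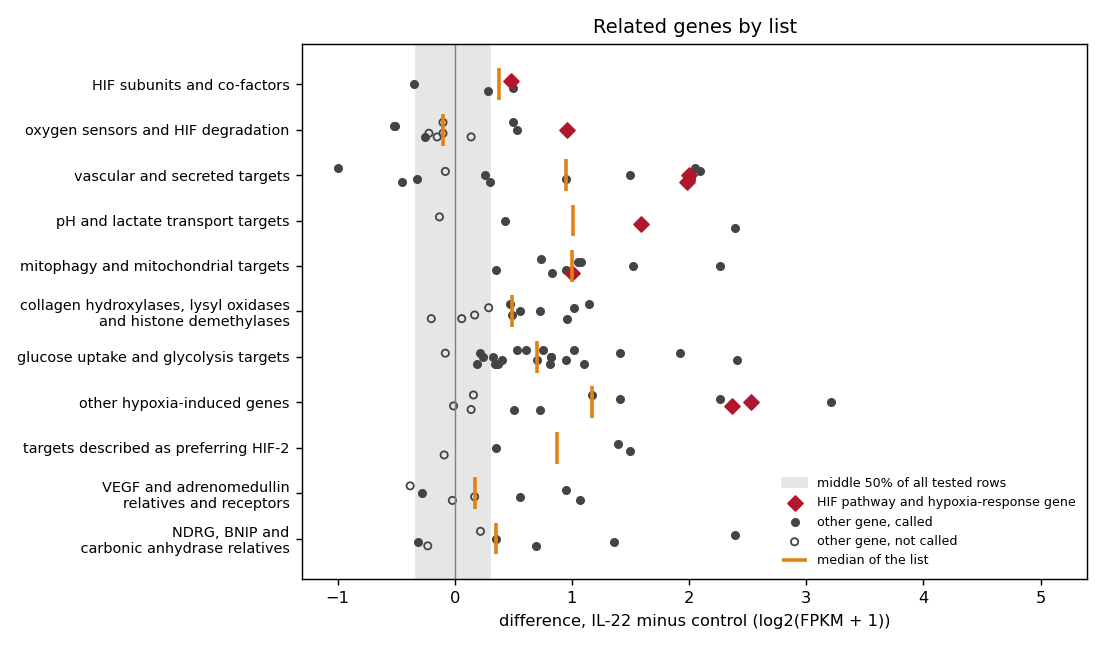
Difference between IL-22 and control on the log2(FPKM + 1) scale (horizontal axis) for the tested genes of 11 lists (rows), with red diamonds for the genes described here, filled circles for other called genes, open circles for uncalled genes, orange bars for list medians and a grey band for the middle 50% of all tested rows, from -0.33 to 0.30. List medians range from -0.10 for sensors and degradation genes to 1.17 for the list with Ndrg1 and Ankrd37.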

How the data were processed

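Poly(A) RNA was read on an Illumina sequencer, per the labels. The authors deposited FPKM in 1 column per library. The submitters' processing notes name TopHat2, Cuffdiff and the build rn5, without versions or roles. Sources used here do not state the annotation, the strand or any scaling of one library to another, so overlapping or antisense genes and near-identical copies may share reads. A deposited table of lncRNAs was not used.

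A named gene whose symbol had several rows was represented by the row with the highest mean. In the fit such rows were kept apart, so counts, shares and ranks over all tested rows include them. The promoter shares used the first row of each symbol. Each row averaging 1 FPKM or more entered a limma 3.58.1 fit of log2(FPKM + 1) under R 4.3.3 (trended eBayes, all 4 libraries, no covariates, two-sided, Benjamini-Hochberg adjusted p under 0.05 over 9485 rows), after a check on simulated data. In the simulated data few rows were changed and noise was drawn by level, whereas 58.4% of rows were called in these data. That check therefore cannot vouch for the calls given here. The 1 FPKM added before the log2 understates the change of low genes. An exact permutation test of 2 against 2 libraries cannot go below 0.333 and was not used, and the p of each gene comes from the limma fit. The genes and 11 lists were chosen with earlier results of these data known. Named list genes are up to 6 called genes per list by absolute difference, and some genes that entered the list counts are not reported here. The 14 alternatives changed the pseudocount, filter, normalization, variance model, replicate block and libraries. Python 3.11.15 with pandas 2.3.3 and matplotlib 3.10.9 made the summaries and figures.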

Additional observations from a re-analysis of the deposited data

How the results depend on the processing

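The 8 tested genes kept their direction and their call in 111 of 111 refits over the 14 alternatives. Egln3 had no value at a minimum of 5 FPKM, so 7 of 8 were called there. Of 1248 refits of 90 other list genes 1186 kept their call, 53 lost it, 9 gained one, and 0 called values changed sign. Rows called higher numbered from 2120 to 2281 and rows called lower from 2361 to 2491 with a library left out, against 2619 and 2918. A group left with 1 library was assumed to vary like the other. With the replicate block, 2755 rows were higher and 3070 lower. Among tested list genes the block ended the call of Cul2 and gave one to Egln2 and Jmjd6, both lower, and changed no other. The numbers are not said to mark a batch, and same-numbered libraries did not deviate together (r = -0.00197 over 9485 rows). Lower calls among HIF subunits numbered 0 without the filter and from 0 to 1 with a library left out, and those among sensors 1 without the filter and from 1 to 2. Those among acid and lactate transport genes ran from 0 to 1 with a library left out, as did those among collagen and chromatin enzymes, which also had 1 with the replicate block, and those among NDRG, BNIP and carbonic anhydrase relatives, which had 2 without the filter. Among VEGF and adrenomedullin relatives 0 were higher at a minimum of 5 FPKM, 2 were lower with quantile normalization, and the median turned to -0.02 at that minimum, where fewer genes are tested. Other causes were not tested. Unknown depth leaves Epas1 and Egln3, at or under 2.49 FPKM, the least certain.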

Other observations

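The core motif letters ACGTG or GCGTG occurred about as often in the promoter windows of rows called higher after IL-22 (64.0% of 1962) as in those of rows called lower (65.4% of 2246) and of rows not called (63.3% of 2963). For rows called higher by 1 log2 unit or more the share was 56.3% of 318 windows, and among those lower by as much it was 69.2% of 208. The median GC content of these sets was 61.7% and 60.2%. These shares are a description of 300-base windows, with no test.

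Other carbonic anhydrase and BNIP genes also differed. Car3 was listed at 0 in both IL-22 libraries and at 1.18 and 0.765 FPKM in controls. Bnip1, which acts in transport to the endoplasmic reticulum, was higher by 0.69 ± 0.09, with 35.5 and 35.6 FPKM with IL-22 and 19.9 and 23.6 FPKM in controls. Bnip2 was lower by 0.31, a call lost without IL-22 library 2 or control library 1 (limma adjusted p 0.000717 to 0.0672 over the 14). Of 7 tested relatives of Ndrg1, Bnip3 and Car9, 4 were higher and 1 lower (median 0.35). Among the 4, Ndrg4 reached the minimum only through its IL-22 level. Over all tested rows 27.6% were called higher and 30.8% lower, or 58.4% in either direction.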
